A study of Homo sapiens with 14 samples.

Results

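The step from definitive endoderm (DE) to the pancreatic progenitor stage PP2 was described from the 2 libraries that the labels name DE and PP2, out of 14 RNA-seq libraries in the series. All libraries came from MEL1, a human embryonic stem cell line, and the study's methods name it as the INS GFP/W line, with a GFP reporter placed in 1 INS allele, which all libraries share. DE cells were labelled as hPSC-derived definitive endoderm and PP2 cells as hPSC-derived pancreatic progenitors, and the labels put both in batch 1, together with 1 undifferentiated library (hPSC) and 1 library of beta-like cells (SC-β). Levels in 2 DMSO-treated pancreatic progenitor libraries (7 days) and in 4 libraries of expandable pancreatic progenitors (ePP-P9 and ePP-P21, passages 9 and 21), all from batches 2 and 3, are set beside them for named genes. Per the study's methods the ePP cells grew on feeder cells in a medium that held 1 μM I-BET151, an inhibitor of BET bromodomain proteins. A further 2 libraries of pancreatic progenitors that were given I-BET151 (1 μM, 7 days) and 2 of beta-like cells made from ePP cells (ePP-β) serve here for the spread between replicates.

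Undifferentiated cells were kept on CF1 feeder cells, and differentiation ran in suspended aggregates. The media held activin A (100 ng/ml) on days 1 and 2 with CHIR99021, a GSK3 inhibitor (3 μM), on day 1. They then held KGF (25 ng/ml) with the TGF-β receptor inhibitor A83-01 (2.5 μM) on day 3 and KGF alone on days 4 and 5. The retinoic acid receptor agonist TTNPB (3 nM) was present from day 6 to day 8, EGF (50 ng/ml) from day 8 to day 11, and KGF (50 ng/ml) again from day 9 to day 11. From day 12 to day 18, on the way to beta-like cells, the study's R6 medium held a TGF-β inhibitor and compound E among other agents. The labels do not tie DE or PP2 to a day of harvest. There was no sort in the labels, so each library is a bulk of all cells in the aggregates, and a change in the number of cells of a type cannot be told apart from a change in RNA per cell.

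Definitive endoderm is the germ layer from which gut, liver and pancreas form. It arises under strong Nodal/activin signalling and carries SOX17, GSC, EOMES and CXCR4. As the posterior foregut is patterned, retinoic acid and FGF signals help the pancreatic domain to start PDX1, and later SOX9, PTF1A and NKX6-1, while the foregut also gives rise to liver and stomach, and the gut behind it to CDX2-positive intestine. PP2 is the name the study gives to progenitors that carry both PDX1 and NKX6.1.

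Values are TPM, a transcript level scaled for transcript length and library size. A gene was counted as expressed at 1 TPM or more in either library (18578 genes), and it was called when log2(TPM + 1) differed by 4-fold or more and the higher library held 10 TPM or more. Each stage had 1 library, so no test was possible, and the calls compare these libraries rather than the conditions. By this rule 1039 genes were higher in PP2 (5.59% of expressed genes) and 350 were lower (1.88%). Of the higher genes 943 were protein-coding and 55 were lncRNAs, and of the lower genes 230 were protein-coding and 61 lncRNAs.

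**Figure D1:**
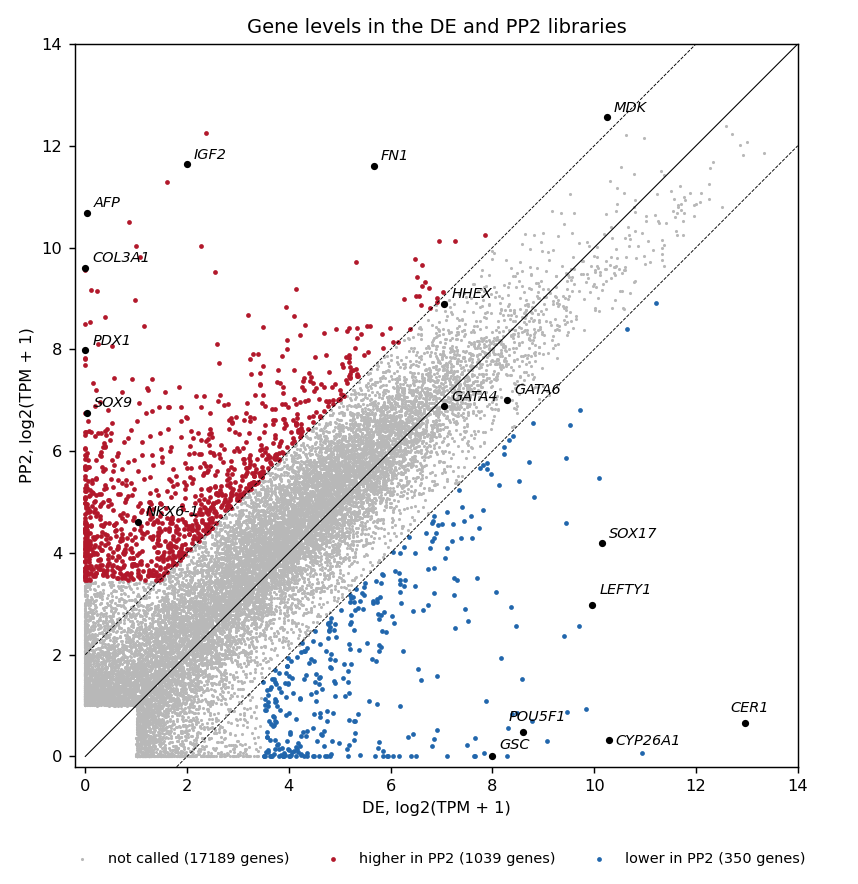
Each point is 1 of the expressed genes, placed by log2(TPM + 1) in DE (horizontal axis) and in PP2 (vertical axis), with the 1039 genes called higher in PP2 in red, the 350 called lower in blue, the others in grey and named genes in black. The solid line marks equal levels and the dashed lines a 4-fold difference. PDX1, SOX9, AFP and COL3A1 lie on the left edge, near 0 in DE, and CER1, CYP26A1, POU5F1 and GSC lie on the lower edge, near 0 in PP2.

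The whole distribution was shifted towards PP2. The median log2 difference (PP2 minus DE) over expressed genes was 0.38, and ribosomal protein genes took 21.5% of listed TPM in DE against 10.9% in PP2. Of 88 ribosomal protein genes 82 were lower in PP2, and the 85 expressed ones had a median log2 difference of -0.97. Only RPS10 was called (2368 TPM in DE, 478 TPM in PP2), a gene that overlaps the readthrough RPS10-NUDT3. Its level also differed widely between replicates, at 761 and 2896 TPM in the 2 DMSO libraries. With the median difference set to 0 the counts became 795 higher and 470 lower (62.8% higher, against 74.8% as deposited), and after quantile normalisation they became 710 and 518 (57.8% higher). With ribosomal protein genes taken out and the rest rescaled, the median log2 difference was 0.17 and the counts were 988 higher and 486 lower (67% higher). Differences within about 0.38 of 0 on the log2 scale therefore carry no direction.

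As a measure of spread, the same rule was applied between the 2 replicates of each of the 5 replicated groups. It called 27 genes of 15808 in ePP-P9, 33 of 16750 in ePP-P21 and 46 of 18191 in ePP-β. It called 126 of 17223 in DMSO and 314 of 16929 in I-BET151. Between DE and PP2 it called 1389 of 18578 (7.48%, against 0.171% to 1.85% between replicates). For the 814 higher genes that reached 10 TPM in some replicated library, 787 differed between DE and PP2 by more than 2 times the root mean square of their replicate differences, as did 125 of 139 such lower genes. A called gene differed by 2 or more on the log2 scale, so any with a root mean square under 1 passed by the rule. Only 112 of the 1039 higher genes and 33 of the 350 lower genes had one of 1 or more. These shares therefore do not test the calls. The replicates came from other groups and batches than DE and PP2.

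**Figure D2:**
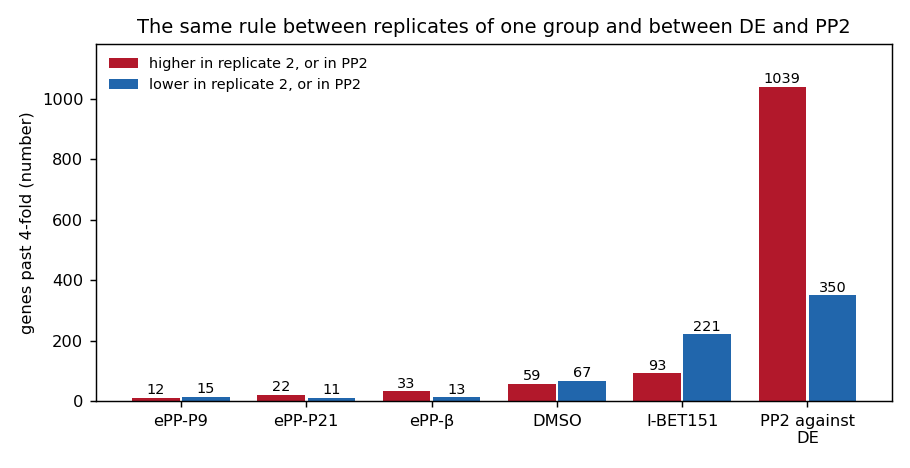
Bars give the number of genes past the 4-fold rule between the 2 replicates of ePP-P9, ePP-P21, ePP-β, DMSO and I-BET151, and between DE and PP2. Red bars count genes higher in replicate 2 or in PP2 and blue bars genes lower there. Replicate pairs gave 11 to 221 genes per direction, and PP2 against DE gave 1039 and 350.

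The labels could be checked against PDX1, SOX9 and SOX17. PDX1 (chromosome 13, 27920000 to 27926313, GRCh38), the factor that sets up the pancreatic domain, had a level of 251 TPM in PP2 and 58.5 TPM in SC-β, and both earlier stages listed it at 0. SOX9, a progenitor and duct factor, was at 0.0197 TPM in DE and 107 TPM in PP2. SOX17, the endoderm factor, was at 0 in hPSC, 1140 TPM in DE and 17.3 TPM in PP2. All these markers lay on the side their labels give.

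Pancreatic progenitor factors were higher in PP2 as a group. Of 17 expressed members 10 were called higher (5.59% of all expressed genes were) and none lower, and the median log2 difference of the list was 3.34. NKX6-1, the trunk and later beta-cell factor, went from 1.06 TPM in DE to 23.5 TPM in PP2, and its level was 181 TPM in SC-β and 176 to 213 TPM in the ePP libraries. PTF1A, which marks multipotent and acinar-fated progenitors, was listed at 0 in DE and at 21 TPM in PP2. PTF1A was at 61 TPM in SC-β, above its level in PP2, and reached no more than 0.119 TPM in the ePP libraries and 0.337 TPM in the DMSO libraries.

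HNF4A, a nuclear receptor of liver, gut and pancreas, was at 5.6 TPM in DE and 119 TPM in PP2. ONECUT1, which acts upstream of endocrine commitment, was at 0.272 and 10.8 TPM, and ONECUT2 at 0.129 and 18.4 TPM. HES1, a Notch effector that holds progenitors undifferentiated, was at 9.85 and 184 TPM, and PROX1 was at 0.0819 and 14.5 TPM.

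Other factors of the list were already present in DE and were not called. FOXA2, a pioneer factor of endoderm, was at 82.4 TPM in DE and 201 TPM in PP2. GATA4 was at 131 and 117 TPM, GATA6 at 310 and 128 TPM, and MNX1 at 10.2 and 37.2 TPM. NKX6-2 stayed low in both libraries (1.01 and 1.29 TPM).

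**Figure D3:**
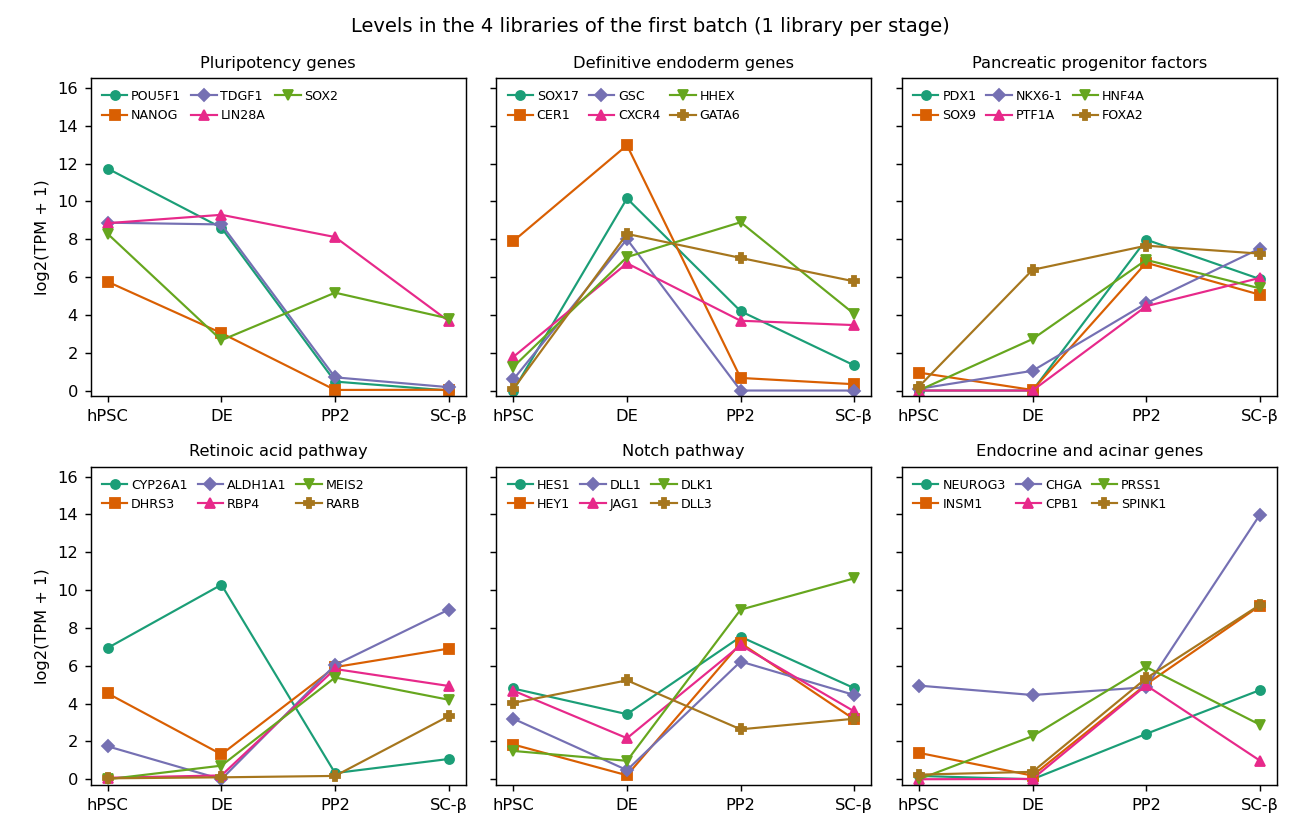
Panels show log2(TPM + 1) of selected members of 6 groups in the hPSC, DE, PP2 and SC-β libraries, 1 library per stage, with lines joining the stages of each gene. POU5F1, SOX17 and CYP26A1 lie near 0 or low by PP2, PDX1, SOX9 and HEY1 are first high in PP2, and CHGA is first high in SC-β (16156 TPM).

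Many definitive endoderm genes went the other way. Of 23 expressed members 13 were called lower in PP2 (1.88% of all expressed genes were), none was called higher, and the list's median log2 difference was -3.01. CER1, a secreted antagonist of Nodal and BMP (chromosome 9, 14719724 to 14722733), was the third most abundant protein-coding gene in DE at 8009 TPM and was at 0.587 TPM in PP2. GSC was at 255 TPM in DE and listed at 0 in PP2. EOMES, a T-box factor needed to form endoderm, was at 334 and 0.772 TPM, and the homeobox gene MIXL1 at 356 and 0.808 TPM.

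CXCR4, the chemokine receptor used to sort endoderm, was at 105 TPM in DE and 11.9 TPM in PP2, and it was at 10 TPM in SC-β. LHX1 was at 327 and 6.64 TPM, OTX2 at 232 and 1.14 TPM, KIT at 43 and 6.49 TPM and PRDM1 at 28.3 and 0.799 TPM. In all, 4 of the 23 members had a positive difference. HHEX, a factor of ventral foregut, liver and pancreas buds, was at 132 TPM in DE and 476 TPM in PP2, missed the 4-fold limit at a log2 difference of 1.84 and was at 15.5 TPM in SC-β. FOXA2 was at 82.4 and 201 TPM, FLRT3 at 32.1 and 90.5 TPM, and GATA3 at 0.392 and 5.65 TPM, the last under the 10 TPM needed for a call.

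Pluripotency genes still present in DE were mostly lower by PP2. Of 19 expressed members 8 were called lower and 1 higher, and the median log2 difference was -2.30. POU5F1 was at 3401 TPM in hPSC, 389 TPM in DE and 0.389 TPM in PP2. NANOG was at 52.8, 7.21 and 0.0217 TPM over the same libraries and was not called because DE held less than 10 TPM. L1TD1 was at 153 TPM in DE and 4.78 TPM in PP2, and DNMT3B, a de novo DNA methyltransferase, at 136 and 26.8 TPM.

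The member called higher was SOX2, which is also a foregut and stomach factor. SOX2 was at 310 TPM in hPSC, 5.32 TPM in DE and 35.1 TPM in PP2. The RNA-binding protein gene LIN28A stayed abundant (625 TPM in DE, 276 TPM in PP2), as did SALL4 (73.3 and 58.7 TPM) and LIN28B (35.3 and 39.4 TPM), and none of these was called.

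NODAL, its co-receptor and its LEFTY feedback inhibitors were among the genes with the largest negative differences. NODAL was at 200 TPM in DE and 0.284 TPM in PP2. Its co-receptor TDGF1 was at 439 and 0.622 TPM. The inhibitors LEFTY1 and LEFTY2 were at 997 and 6.9 TPM and at 835 and 4.91 TPM, and FOXH1, the factor that carries SMADs to Nodal targets, was at 71.9 and 8.39 TPM. TDGF1 and the LEFTY genes overlap other annotated transcripts on the same strand that were at 120 to 698 TPM in DE, so how reads were divided among them is uncertain.

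Receptors and TGF-β targets differed among themselves. TGFBR3 was at 0.129 TPM in DE and 31.2 TPM in PP2, TGFBR2 at 1.73 and 20 TPM, SMAD3 at 8.65 and 46.7 TPM, and TGFBI, a secreted matrix protein induced by TGF-β, at 1.35 and 146 TPM. Other targets did not move with it: PMEPA1 was called lower (41.4 and 7.3 TPM), and SMAD7 (53.3 and 61 TPM) and SKIL (15.1 and 13.4 TPM) were not called. The receptor genes TGFBR1 (26.4 and 30.9 TPM), ACVR2A (5.01 and 5.89 TPM) and ACVR2B (19.8 and 15.3 TPM) were not called either. CFC1, another EGF-CFC co-receptor gene, was at 2.12 and 42.5 TPM. In all, 5 of 31 expressed members of the Nodal and TGF-β list were called higher (4 with median centring, which removed SMAD3) and 7 lower, and the sign of the list's median (0.22) turned with median centring (-0.16).

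Wnt pathway members moved in both directions, with 7 of 39 called higher and 5 lower. Among secreted antagonists, DKK4 (316 and 0.474 TPM) and DKK1 (207 and 10.4 TPM) were called lower. SFRP5 (0.183 and 276 TPM) and FRZB (13.8 and 98.4 TPM) were called higher. SFRP1 (112 and 36.5 TPM) and DKK3 (24.1 and 49 TPM) were not called. LGR5, a Wnt target and R-spondin receptor, was at 13.3 and 0.0201 TPM, and AXIN2, the general Wnt target, was at 23 and 6.97 TPM and not called. Other members went up, and LEF1 (0.79 and 10.1 TPM) and NKD2 (3.44 and 33.6 TPM) were called higher. NOTUM (12.2 and 1.1 TPM) and WNT3 (26.9 and 5.23 TPM) were called lower. WNT11 was at 0.331 and 37.9 TPM, and the receptor genes FZD2 and LRP5 were at 13.2 and 160 TPM and at 35.1 and 235 TPM. The list's median (0.38) equalled that of all expressed genes.

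Retinoic acid is made by aldehyde dehydrogenases, cleared by CYP26 enzymes and read by RAR and RXR receptors. CYP26A1 (chromosome 10, 93073475 to 93077885), the clearing enzyme whose gene retinoic acid is known to induce, was at 122 TPM in hPSC, 1246 TPM in DE and 0.253 TPM in PP2. An overlapping lncRNA, ENSG00000285846, moved with it (538 and 0.227 TPM). CYP26B1 was at 2.37 and 4.75 TPM. DHRS3, which turns retinal back to retinol and is likewise a known retinoic acid target, was at 1.49 TPM in DE and 59.9 TPM in PP2.

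The synthesising enzymes differed in direction. ALDH1A1 was listed at 0 in DE and was at 64.8 TPM in PP2, and ALDH1A3 was at 35.1 and 0.163 TPM. The carrier and uptake genes RBP4 and STRA6 were at 0.15 and 55.8 TPM and at 4.72 and 28.4 TPM. The homeobox cofactors MEIS1 and MEIS2 were at 0.969 and 18.8 TPM and at 0.645 and 40.6 TPM. Of 21 expressed members 6 were called higher and 2 lower, with a median log2 difference of 1.56. With median centring 5 were called higher, without STRA6, and 4 lower, RARG and the binding protein gene CRABP1 (39.1 and 10.5 TPM) being added.

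Among receptors, RXRA was at 38.1 TPM in DE and 138 TPM in PP2, RARA at 20.1 and 66.8 TPM and RARG at 37.7 and 10.1 TPM, none past 4-fold on the log2(TPM + 1) scale as deposited. RARB, a classical target of retinoic acid, was at 0.0724 TPM in DE and 0.129 TPM in PP2. It was below 1 TPM in both and reached 9.11 TPM in SC-β.

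Promoters of this list were searched for direct repeats of a receptor-binding hexamer on either strand. The hexamers were AGGTCA and its variant AGTTCA, together with GGGTCA and with its variant GGTTCA, and the repeats were spaced by 5, 2 or 1 bases, in the 250 bases before each RefSeq start (GRCh38.p14). Of 22 list members with a promoter in the RefSeq set, 1 held such a repeat, that of RARB (chromosome 3, 25428013 to 25428262, plus strand), 53 to 37 bases before the start. Over 27305 promoters of the same length 0.201% held one. Among protein-coding genes called higher 1 of 687 promoters did (0.146%), and among those called lower 0 of 165. The hexamers and spacings searched include those of the RARB repeat, so this match is no measure of enrichment in the list. The RARB promoter is shown because RARB was below 1 TPM while other list members were high, with the repeat in capitals.
RARB: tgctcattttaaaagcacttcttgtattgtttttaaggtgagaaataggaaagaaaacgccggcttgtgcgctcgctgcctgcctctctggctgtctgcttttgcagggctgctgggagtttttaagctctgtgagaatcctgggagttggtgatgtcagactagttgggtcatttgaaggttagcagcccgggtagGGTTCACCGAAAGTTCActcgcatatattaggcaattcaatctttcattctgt

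In the FGF and EGF list 8 of 32 expressed members were called higher in PP2, 5 of them receptor genes, and 2 ligand genes were called lower. The ligand genes were FGF17, at 909 TPM in DE and 0.901 TPM in PP2, and FGF8, at 48.5 and 2.77 TPM. FGF13 was at 36.7 and 15.7 TPM and was not called. FGFR2, the receptor gene whose epithelial isoform binds KGF, was at 6.15 and 38.4 TPM, FGFR3 at 26.2 and 124 TPM and FGFR4 at 35.8 and 174 TPM. EGFR was at 0.128 and 10.9 TPM and ERBB3 at 3.69 and 60.2 TPM, and a gene that overlaps ERBB3 on the same strand, ENSG00000257411, was at 172 and 173 TPM, so how reads were divided between them is uncertain. FGFR1, which had the highest DE level of the FGF receptor genes, was at 64.3 and 66.2 TPM and ERBB2 at 36.2 and 138 TPM, and neither was called. Of the feedback and immediate early genes, DUSP6 (17 and 81.8 TPM), EGR1 (4.29 and 37 TPM) and FOS (5.12 and 34 TPM) were called higher, and SPRY2 (44 and 101 TPM) and SPRY4 (34.6 and 32.3 TPM) were not. The log2 difference of FOS (2.52) was within 2 times the root mean square of its replicate differences (2.12), and ePP libraries held it at 14 to 344 TPM. With median centring 5 members were called higher, without FGFR3, FGFR4 and DUSP6.

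Ligands, a receptor and targets of the Notch pathway were higher in PP2. Of 27 expressed members 11 were called higher and 1 lower (9 and 1 with median centring), 25 had a positive difference, and the median was 2.04. Among ligands, DLL1 was at 0.396 TPM in DE and 73.7 TPM in PP2, DLL4 at 0.0705 and 36.9 TPM, and JAG1 at 3.5 and 135 TPM. DLL3 was the member called lower (36.5 and 5.23 TPM). DLK1, a non-canonical Notch ligand and imprinted gene, was at 0.965 and 499 TPM.

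NOTCH2 was at 7.42 and 42.2 TPM, while NOTCH1 (15.4 and 59.4 TPM) and NOTCH3 (53.2 and 204 TPM) stayed just under the 4-fold limit. Target genes included HES4 (18.9 and 355 TPM), HEY1 (0.155 and 146 TPM) and NRARP (3.4 and 19 TPM). LFNG, which modifies Notch receptors, was at 4.64 and 76.5 TPM. In SC-β, HES1 was at 27.1 TPM and HEY1 at 7.97 TPM, both below PP2. Per the study's methods beta-like cells went through further media with other agents, compound E among them. The part of those media in these levels was not tested.

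In the Hedgehog and BMP list 9 of 32 expressed members were called higher (8 with median centring) and none lower. The ID genes, targets of BMP that inhibit bHLH factors, stood out in level. ID1 was at 88.6 TPM in DE and 870 TPM in PP2, ID2 at 9.48 and 238 TPM, ID3 at 122 and 1118 TPM and ID4 at 3.84 and 116 TPM. BAMBI, a BMP-induced pseudoreceptor, was at 24.7 and 320 TPM. The ligands BMP2 (110 and 62.1 TPM) and BMP4 (50.5 and 40.1 TPM) were not called. IHH was at 0.153 and 43.5 TPM, against 0.471 and 3.32 TPM for SHH, and the Hedgehog targets PTCH1 (3.45 and 12.2 TPM) and GLI1 (3.74 and 2.81 TPM) were not called.

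HOX genes, which mark position along the body axis, were called in the HOXB cluster. In HOXB, 8 of 10 genes were expressed and 5 were called higher, and the summed level went from 12 TPM in DE to 98 TPM in PP2. HOXB3 was at 2.45 and 20.4 TPM, HOXB4 at 1.02 and 14.6 TPM, HOXB6 at 0.515 and 13.6 TPM, HOXB7 at 0.54 and 10.3 TPM and HOXB8 at 0.0841 and 11.1 TPM. The summed level of HOXA went from 0.735 to 5.39 TPM and that of HOXC from 0.501 to 4.23 TPM, while HOXD was at 0.545 and 0.185 TPM. No gene of these clusters was above 2.02 TPM in PP2, so none of the 29 could reach the 10 TPM needed for a call of higher. HOXB3 overlaps HOXB4 and HOXB6 in the annotation, and HOXB7 overlaps HOXB8, so how reads were divided among them is uncertain.

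Most endocrine genes were low in PP2. INSM1, an early endocrine factor, was at 0.142 TPM in DE and 31.4 TPM in PP2 against 575 TPM in SC-β, and RFX6 was at 0.00174, 13.2 and 75.9 TPM. These were the 2 of 14 expressed members called. NEUROG3, the master factor of endocrine commitment, was listed at 0 in DE and was at 4.28 TPM in PP2, under the 10 TPM needed for a call. INS was listed at 0 in both libraries, and SC-β held it at 20657 TPM. CHGA was at 20.9 TPM in DE and 28.1 TPM in PP2.

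Of the 23 acinar and tip genes 12 were below 1 TPM in both libraries. In PP2 these included the digestive enzyme genes CPA1 (0.82 TPM), CELA3A (0.793 TPM), CTRB1 (0.0585 TPM) and AMY2A (0.0419 TPM), and PNLIP, the pancreatic lipase, was listed at 0. Of the 11 expressed members 6 were called higher, among them the enzyme genes CPB1 (0.0105 and 30.2 TPM), PRSS1 (3.85 and 60.2 TPM) and PRSS2 (9.89 and 68.7 TPM), and SPINK1, a trypsin inhibitor (0.312 and 39.5 TPM). PRSS1 and PRSS2 are near-identical copies, so their values are uncertain. CPB1 was at 0.98 TPM in SC-β and at most 1.27 TPM in the DMSO and 0.101 TPM in the ePP libraries. Of the duct and trunk list 7 of 20 were called higher (6 with median centring), and KRT19 was abundant in both stages (494 and 1105 TPM) while KRT7 was low (1.12 and 0.702 TPM).

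Genes of liver were the list with the largest shift. Of 25 expressed members 20 were called higher and none lower, also with median centring, and the median log2 difference was 4.59. AFP (chromosome 4, 73431138 to 73456174), the fetal plasma protein, was at 0.02 TPM in DE, 1646 TPM in PP2 and 1502 TPM in SC-β. It was at 5198 to 5526 TPM in the DMSO libraries and 84.9 to 113 TPM in the ePP libraries. TTR and SERPINA1, which are also known from islet cells, were listed at 0 in DE and were at 749 and 358 TPM in PP2. The SC-β library held them at 24727 and 1415 TPM. In the DMSO libraries they were at 1049 to 1220 and 977 to 1387 TPM. Which cells held these transcripts was not tested.

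The apolipoprotein gene APOA1 was at 3.86 TPM in DE and 1044 TPM in PP2, and APOA2 at 39 and 838 TPM. VTN, which encodes vitronectin, was at 0.989 and 1041 TPM, and a transcript that overlaps it on the same strand, ENSG00000273171, was at 0.168 and 563 TPM. The fibrinogen genes FGA, FGB and FGG were all listed at 0 in DE and were at 82.3, 207 and 49.4 TPM in PP2. ALB, the defining hepatocyte gene, was lower than these, at 0.0217 TPM in DE and 10.1 TPM in PP2. The regulator CEBPA (0.325 and 78.6 TPM) was called as well. The expressed members not called were APOE (2007 and 4526 TPM), TBX3 (8.27 and 34 TPM), APOA4 (0.00203 and 9.18 TPM), ASGR1 (4.47 and 8.27 TPM) and APOH (0 and 1.62 TPM). TF, NR1H4 and FETUB were below 1 TPM in both libraries, at 0.1, 0.294 and 0 TPM in PP2, and so were not counted among the expressed members.

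In the stomach and intestine list 10 of 20 expressed members were called higher and 1 lower, with a median log2 difference of 2.84. The genes of stomach mucus and digestive secretion were at or near 0 in PP2, with GKN1 listed at 0, MUC5AC at 0.0113 TPM, MUC6 at 0.0212 TPM and PGC at 0.264 TPM, and CLDN18 was at 0.852 TPM. BARX1, a factor of stomach mesenchyme, was the member called lower (13.2 and 0.875 TPM). CDX2, the master factor of intestine, was at 0.435 TPM in DE and 55.5 TPM in PP2, and it was at 94.2 to 95.4 TPM in the ePP libraries. VIL1, a brush-border protein gene, was at 1.29 and 107 TPM. DE listed CDH17 and FABP1 at 0, and PP2 held them at 44.5 and 79.2 TPM. ATOH1, the secretory lineage factor, was listed at 0 and then at 20.6 TPM. Of lung and thyroid genes, NKX2-1 was listed at 0 in both libraries. None of 11 expressed members of the foregut, lung and thyroid list was called, and over all expressed genes 5.59% were called higher and 1.88% lower. A list this short would hold few calls at those shares. A positive difference was seen in 10 of the 11, among them TBX1 (16.4 and 59.3 TPM) and NKX2-5 (5.77 and 18.7 TPM).

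**Figure D4:**
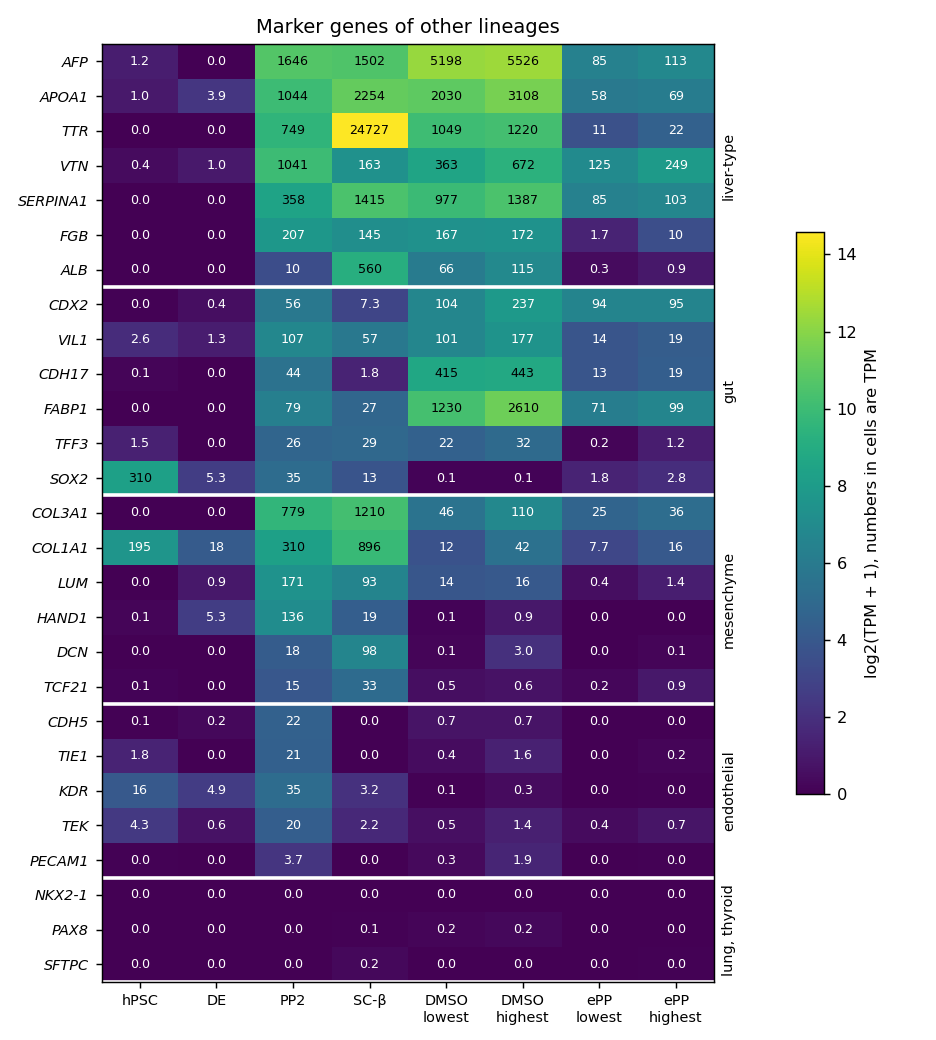
Colour gives log2(TPM + 1) and the number in each cell gives TPM for marker genes of liver, gut, mesenchyme, endothelium, lung and thyroid in the hPSC, DE, PP2 and SC-β libraries, and the lowest and highest of 2 DMSO and 4 ePP libraries. Liver-type genes are high in PP2, SC-β and DMSO, mesenchyme genes in PP2 and SC-β (COL1A1 in hPSC as well), and endothelial genes such as CDH5 (22.3 TPM) stand highest in PP2.

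Most mesenchyme markers were called higher. Of 21 expressed mesenchyme markers 14 were called higher and 2 lower, also with median centring. The lower ones were TWIST2 (10.2 and 1.74 TPM) and BARX1 (13.2 and 0.875 TPM). The list's summed level was 931 TPM in hPSC, 123 TPM in DE, 1981 TPM in PP2 and 3656 TPM in SC-β. It was 267 to 378 TPM in DMSO and 137 to 191 TPM in ePP libraries. COL3A1, a fibrillar collagen of fibroblasts, was at 0.000506 TPM in DE and 779 TPM in PP2. COL1A1 was at 17.5 and 310 TPM and LUM at 0.889 and 171 TPM. DCN, HAND2 and TCF21, a factor of visceral mesenchyme, were listed at 0 in DE and were at 17.9, 14.4 and 14.8 TPM in PP2.

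HAND1, a factor of lateral and extraembryonic mesoderm, was at 5.29 TPM in DE and 136 TPM in PP2, and FOXF1, a target of Hedgehog in gut mesenchyme, at 0.237 and 15.7 TPM. PDGFRA (4.35 and 20.2 TPM) and THY1 (10 and 24.2 TPM) were not called. No mesenchyme marker was listed at 0 in PP2, though PRRX1 (0.662 TPM), TBX18 (0.287 TPM) and BARX1 were below 1 TPM there. The IHH, IGFBP and collagen values elsewhere in this text come from the same bulk RNA, and the part that mesenchymal cells have in them was not tested.

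Of 13 expressed endothelial and blood markers 5 were called higher. CDH5, the endothelial cadherin, was at 0.235 TPM in DE and 22.3 TPM in PP2, TIE1 at 0.0229 and 20.9 TPM, TEK at 0.645 and 19.6 TPM, ESAM at 0.273 and 22.3 TPM and KDR at 4.94 and 35.4 TPM. PECAM1 reached 3.74 TPM and CD34 5.87 TPM in PP2, and the leukocyte gene PTPRC was listed at 0 in both libraries. SOX18 had a negative difference and was not called (29.9 and 15 TPM). In SC-β, CDH5 was at 0.0348 TPM and TIE1 at 0.0178 TPM. The same library held KDR at 3.22 TPM, ESAM at 3.93 TPM and TEK at 2.17 TPM. Of neural and neural crest genes, DCX alone was called (0.0194 and 13.5 TPM), and SOX10 was at 6.01 and 0.0291 TPM.

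In the list of epithelial adhesion and keratin genes 12 of 31 expressed members were called higher in PP2 and none lower, and 10 were with median centring, which removed KRT8 and ITGA6. CDH1, which encodes E-cadherin, was at 155 TPM in hPSC, 9.81 TPM in DE and 156 TPM in PP2, while CDH2, encoding N-cadherin, was at 192 TPM in DE and 177 TPM in PP2. The tight-junction genes CLDN3 (7.88 and 71.2 TPM) and CLDN4 (0.935 and 25.2 TPM), the keratin gene KRT8 (130 and 558 TPM) and GRHL2, an epithelial master factor (0.53 and 12.2 TPM), were called higher. SNAI2, an inducer of mesenchymal transition, was also called higher (0.289 and 11.3 TPM), and SNAI1 was at 22.5 and 8.92 TPM. The other keratin genes were not called, KRT18 at 507 and 1246 TPM among them, nor were the junction genes CLDN6 (371 and 841 TPM), CLDN7 (69 and 131 TPM), OCLN (7.54 and 14.9 TPM), TJP1 (20.8 and 35.3 TPM) and CLDN10 (4.7 and 0.126 TPM).

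Matrix genes differed in both directions. FN1, which encodes fibronectin, was at 49.7 TPM in DE and 3115 TPM in PP2, where it ranked twelfth among protein-coding genes, and it was at 120 TPM in SC-β. Glypicans went in opposite directions, GPC3 at 4.84 and 730 TPM and GPC4 at 176 and 6.46 TPM. COL2A1 was at 0.435 and 266 TPM, VCAN at 8.78 and 238 TPM and HSPG2, encoding perlecan, at 22.1 and 151 TPM. Basement membrane collagens COL4A1 (93.6 and 89.4 TPM) and COL4A2 (68.7 and 155 TPM) were not called, while COL4A5 (3.82 and 34.2 TPM), COL4A6 (11.9 and 96.7 TPM) and COL18A1 (95.8 and 467 TPM) were called higher. Of 34 expressed members 13 were called higher and 2 lower, and 10 and 4 with median centring, which removed COL18A1, LAMC1 and FBN1.

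Of 23 expressed IGF axis and imprinted genes 9 were called higher (8 with median centring) and none lower, and 4 had a negative difference. IGF2 (chromosome 11, 2129112 to 2158391), a fetal growth factor expressed from the paternal allele, was at 2.98 TPM in DE and 3178 TPM in PP2. It overlaps INS-IGF2 (0.826 and 1440 TPM), ENSG00000284779 (2.03 and 2495 TPM) and the lncRNA ENSG00000240801 (4.21 and 4895 TPM) on the same strand, so how reads were divided among these is uncertain. IGFBP3 was at 0.303 and 396 TPM, IGFBP5 at 0.0363 and 95.4 TPM and IGFBP7 at 1.97 and 142 TPM. CDKN1C, an imprinted inhibitor of the cell cycle, was at 38.5 and 259 TPM, and H19, the neighbour of IGF2, was at 1.36 and 0.33 TPM.

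Proliferation genes were called in small numbers, and over all expressed genes only 5.59% were called higher and 1.88% lower. The counts in these lists were not tested against those shares. None of 52 expressed G2/M genes was called, MKI67 was at 19 TPM in DE and 20.7 TPM in PP2, and the list's median log2 difference of 0.27 lay below that of all expressed genes. Of 42 S phase genes 3 were called higher (2 with median centring), UHRF1 at 16.2 and 129 TPM, MCM2 at 35.1 and 226 TPM and MCM5 at 32.6 and 136 TPM. Among G1 regulators, CCND2 was at 0.43 and 12.3 TPM, with ENSG00000285901 over it on the same strand at 23.2 and 18.3 TPM, so that its value is uncertain. E2F1 was at 8.45 and 59.3 TPM and CDKN2C at 17.9 and 0.328 TPM.

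Across all lists, those with the largest medians were liver-type genes, mesenchyme markers and pancreatic progenitor factors, and those with the lowest were pluripotency and definitive endoderm genes. Expressed members counted here had to reach 1 TPM in DE or PP2, so shares are of those members and not of whole lists.

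**Figure D5:**
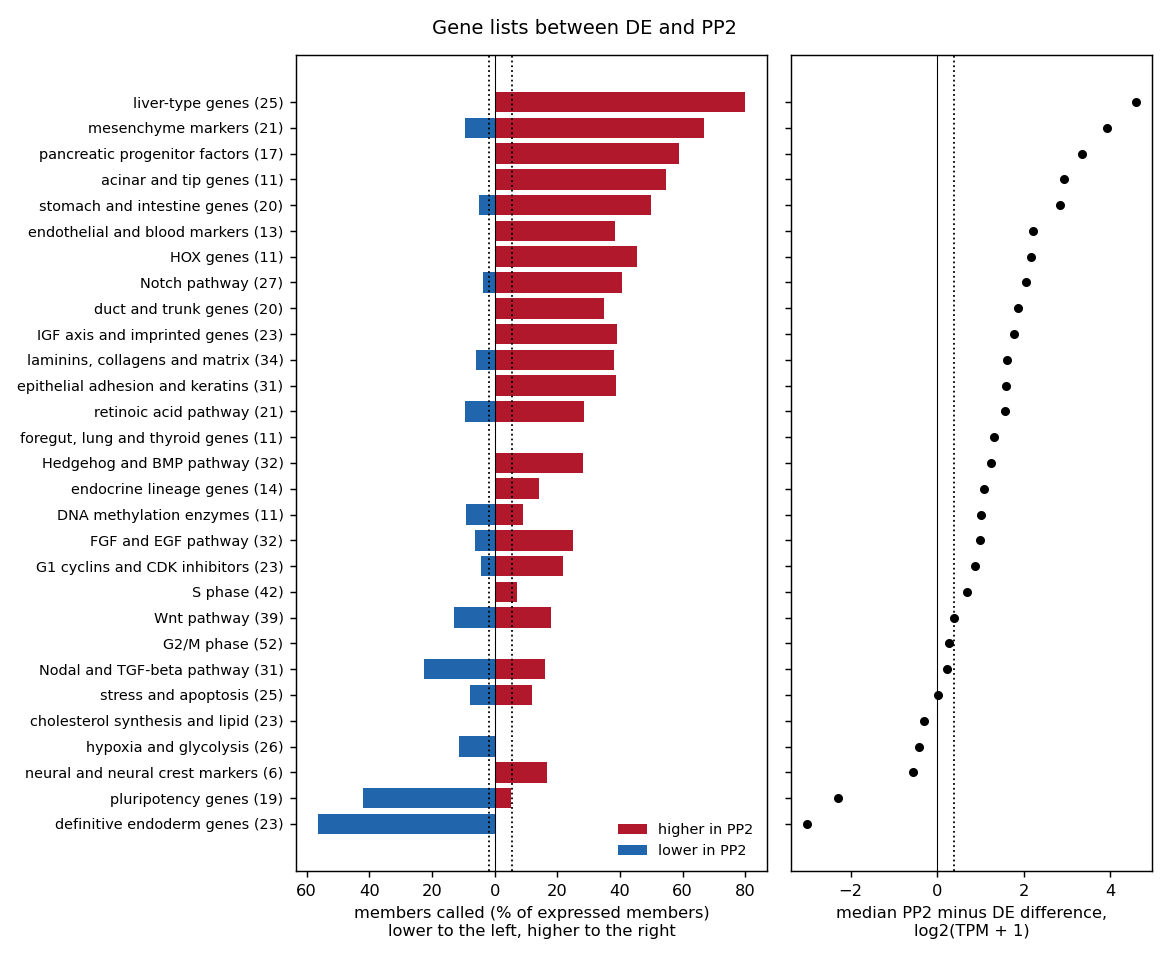
For each of 29 gene lists, ordered by median, bars on the left give the share of expressed members (their number in brackets) called higher (red) or lower (blue) in PP2, and points on the right give the median log2 difference. Dotted lines mark the shares over all expressed genes, 5.59% higher and 1.88% lower, and the median over all expressed genes, 0.38. Liver-type genes reach a median of 4.59 and definitive endoderm genes -3.01.

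Levels of the called genes in the hPSC and SC-β libraries, outside the comparison, were also taken. The 1039 higher genes had a median of 6.24 TPM in hPSC, 2.24 TPM in DE, 33.6 TPM in PP2 and 19.4 TPM in SC-β, and 405 of them were at 10 TPM or more in hPSC. In SC-β 710 were at 10 TPM or more and 52 below 1 TPM. The 350 lower genes had a median of 11.8 TPM in hPSC, 35.2 TPM in DE, 1.89 TPM in PP2 and 2.1 TPM in SC-β, and 189 were at 10 TPM or more in hPSC. The DE and PP2 medians were fixed by the call rule, and the hPSC and SC-β medians were not. Over all expressed genes the median was 9.22 TPM in hPSC and 8.96 TPM in SC-β. The share of all expressed genes at 10 TPM or more was not counted, so these counts have no background beside them.

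The called genes held little of the RNA in the library where they were low. The higher genes made up 0.989% of listed TPM in DE and 10.7% in PP2, and the lower genes 5.29% in DE and 0.349% in PP2. CER1 alone was 0.876% of listed TPM in DE. In PP2 the most abundant protein-coding gene was MDK, which encodes the heparin-binding growth factor midkine, at 6025 TPM against 1212 TPM in DE and 766 TPM in SC-β.

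Many genes lay close to the limit. Among genes with 10 TPM or more in the higher library, 86 had a log2 difference from 2 to 2.1 and were called higher, and 110 had one from 1.9 to 2 and were not. On the lower side 12 lay just inside and 25 just outside. Of the higher genes 368 were below 1 TPM in DE and 55 of those were listed at 0, and of the lower genes 135 were below 1 TPM in PP2 and 29 listed at 0. Some called genes named above lie over a gene on the opposite strand whose level in their higher library was at least 10% of theirs, among them KRT8 (over KRT18), DLL1, DUSP6, FOXH1, PRDM1 and IGFBP7, and without a stated strand setting the reads of such pairs cannot be told apart. A gene listed at 0 is not shown to be silent, since all 37 mitochondrial genes are listed at 0 in both libraries.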

How the data were processed

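RNA from MEL1-derived cells was isolated with a column kit, made into NEBNext Ultra libraries and sequenced in paired-end mode by the authors. The authors aligned reads to hg38 with HISAT2 (2.1.0) and assembled and quantified them with StringTie, and the deposited TPM values are the sum over transcripts of each Ensembl gene. The annotation release and the strand setting are not given in the sources used here. TPM keeps no read depth, so counting error cannot be given. Of 60624 gene identifiers 60370 were matched to GENCODE release 44 (GRCh38) for symbols, biotypes and positions.

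Each of DE and PP2 had 1 library, grouped by title. Genes with 1 TPM or more in either library were kept, log2(TPM + 1) was compared, and a gene was called at a difference of 2 or more (4-fold) with 10 TPM or more in the higher library. The code of the rule was checked on a copy of the DE library with known changes put in and no noise added. That check shows only that the rule runs as written and says nothing about error in single libraries. Listed TPM summed to 914506 in DE and 946540 in PP2. Named genes were, per direction, the 20 called protein-coding genes with the largest log2 difference, the 10 with the largest TPM difference and the 5 such lncRNAs, and in each of 29 lists the called members with the largest differences, members at high level and defining members. Other members are named with their values, and a few genes that the rule names are not reported here. Members and lists were chosen with earlier results of these data known. Overlapping genes were noted where they held at least 10% of the named gene's level. In all, 13 alternative settings were tried. Calculations used Python 3 with pandas and numpy.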

Additional observations from a re-analysis of the deposited data

How the results depend on the processing

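No paired analysis was possible because DE and PP2 have 1 library each, and for the same reason no library could be left out. The number of genes higher in PP2 (1039) ranged from 549 to 3021 over the 13 alternatives and the number lower (350) from 206 to 955, and both ends came from the fold limit. At 2-fold the counts were 3021 and 955, at 8-fold 549 and 206. With protein-coding genes only they were 943 and 230, by construction a smaller set of genes. The other 10 alternatives kept both counts within 1.5 times, from 710 to 1351 higher and from 241 to 518 lower. The share of calls that were higher moved from 74.8% to 62.8% with median centring and to 57.8% with quantile normalisation.

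Of 231 called genes that were named or listed, 17 lost the call with median centring and 26 with quantile normalisation, all of them genes called higher. FGFR3, FGFR4, SMAD3, STRA6 and KRT8 lost it under both, MDK with centring, and ONECUT1, FGFR2, EGFR, ALB, SNAI2, HOXB7 and HOXB8 with quantile normalisation. Taking out ribosomal protein genes removed 5 calls, rescaling each library to the same total 1, and the smaller pseudocounts none. Medians of the Nodal and TGF-β list (0.22) and the G2/M list (0.27) were -0.16 and -0.12 with median centring and -0.20 and -0.09 with quantile normalisation, and the Wnt list's median (0.38) went to 0. The stress and apoptosis median (0.01) was -0.37 and -0.41 under these and -0.22 after ribosomal protein genes were taken out. The cause was not tested. Read depth is unknown, so values below about 1 TPM are given as listed and fold differences against them depend on the pseudocount.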

Other observations

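Several genes with large differences belong to none of the lists. CGA, which encodes the alpha subunit shared by the glycoprotein hormones, was at 1.12 TPM in DE and 901 TPM in PP2, against 6.58 TPM in SC-β, at most 0.106 TPM in the DMSO libraries and at most 0.24 TPM in the ePP libraries. SERPINF2, encoding an inhibitor of plasmin, was at 0.0793 TPM in DE and 577 TPM in PP2. HABP2 was listed at 0 in DE and was at 226 TPM in PP2 and 7.61 TPM in SC-β. Among lower genes, GAL, which encodes the neuropeptide galanin, was at 904 TPM in hPSC, 285 TPM in DE and 2.82 TPM in PP2, and NMU, encoding neuromedin U, was at 20.1, 382 and 1.88 TPM in the same libraries. GYPB, a glycophorin gene with near-identical copies, had 65.2 TPM in DE and 0.012 TPM in PP2, with hPSC listed at 0. The gap junction gene GJA1 was at 846 and 111 TPM, IFITM1 at 1093 and 43.3 TPM and the immediate early gene IER3 at 701 and 23.1 TPM. ZIC2 was at 179 TPM in DE and 0.173 TPM in PP2.

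Among lncRNAs, MIR302CHG, the host transcript of the miR-302 cluster of pluripotent cells, was at 481 TPM in hPSC, 1955 TPM in DE and 0.0469 TPM in PP2. LINC00458 was at 91.9 and 201 TPM in hPSC and DE and listed at 0 in PP2, and ENSG00000253507 was at 952 and 310 TPM and listed at 0. Among the higher lncRNAs, LINC02381 was at 0.443 TPM in DE and 93.4 TPM in PP2, with 56.4 to 75.5 TPM in the ePP libraries, and LHFPL3-AS2 was listed at 0 in DE and was at 59.9 TPM in PP2. ENSG00000276900 was at 1.09 TPM in DE and 123 TPM in PP2 and at no more than 1.61 TPM in the ePP, 0.758 TPM in the DMSO and 1.19 TPM in the SC-β libraries. IGF2-AS (0.0847 and 81.6 TPM) overlaps IGF2 on the opposite strand, and their reads cannot be told apart where strand was not used. ENSG00000240801 (4.21 and 4895 TPM) overlaps IGF2 on the same strand, so a strand setting would not separate its reads.

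Of 26 expressed hypoxia and glycolysis genes none was called higher and 3 lower, the glucose transporter gene SLC2A3 (740 and 89.7 TPM), BNIP3 (172 and 23.8 TPM) and PDK1 (11.5 and 1.59 TPM). LDHA was at 169 and 74.4 TPM and PKM at 2570 and 1138 TPM, neither called. None of 23 cholesterol synthesis and lipid genes was called, with a median log2 difference of -0.31, and in this list APOE was at 2007 and 4526 TPM. Of 25 stress and apoptosis genes 3 were called higher and 2 lower, JUN at 4.06 and 46.3 TPM and PMAIP1 at 23.3 and 3.62 TPM, and the sign of that list's median (0.01) turned under 4 of 6 scalings and pseudocounts. Of the DNA methylation enzymes, UHRF1 was called higher and DNMT3B lower, and TET1 was at 6.59 and 3.85 TPM.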
